A study of Homo sapiens with 30 samples.

Results

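PRO-Seq maps transcriptionally engaged RNA polymerases by a nuclear run-on, and here it was used to set SNF5 directly against OmoMYC in G401 cells, without passing through the EGFP control. The comparison took the 6 PRO-Seq libraries of the series that carry either construct, out of 30 samples in all: 3 from cells expressing SNF5 and 3 from cells expressing OmoMYC, paired by replicate number. G401 is an established malignant rhabdoid tumor line that lacks SNF5, and all groups carried a doxycycline-inducible construct, switched on for 24 h at 1 μg/ml, so the drug and the lack of endogenous SNF5 are common to all libraries. Each construct was compared in 1 cell line, the study calls the replicates independent experiments and the labels do not say whether they came from separate cultures. The p-values set each difference between the constructs against its spread over the 3 replicate pairs, with differences shared by a pair taken out. 3 EGFP libraries of the same assay are given as levels, without a test.

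SNF5, encoded by SMARCB1, is a core subunit of the SWI/SNF chromatin remodeling complex, and its loss is the defining lesion of malignant rhabdoid tumors. It also binds MYC. OmoMYC is a dominant-negative MYC mutant that keeps MYC from its target genes. A gene whose polymerase level differs between the constructs is therefore one at which expressing SNF5 and expressing OmoMYC did not have the same outcome. Whether a change with OmoMYC came from inhibiting MYC was not tested. Polymerases often pause just past the start of a gene before entering the gene body, and the pausing index is the promoter-proximal count relative to the gene body count.

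Gene body totals ran from 28388012 to 46702079 reads in the 6 libraries, and promoter-proximal totals from 660343 to 3381190, lowest in replicate 1 of each construct. VIM, a mesenchymal marker, had 846 to 2060 scaled reads per kb of gene body, against a median of 46.5 over all tested genes, whereas the mesenchymal markers FN1 and CDH2 were near 0, at 0.0114 to 1.1 and 0.0195 to 0.397, and the epithelial marker CDH1 had 1.1 to 9.58. The blood markers PTPRC, CD3E and HBB had 3, 17 and 0 gene body reads in the 6 libraries together. Kidney markers were uneven, with PAX2 at 8.3 to 63.2 scaled reads per kb and SIX2 at 0 reads. SMARCB1 checked the labels: its gene body held 2, 5 and 4 reads in the OmoMYC libraries and 2870, 4467 and 3440 in the SNF5 libraries, a log2 fold change of 9.74 (SE 0.13, adjusted p = 2.97e-06). Its promoter-proximal window held 0, 2 and 0 reads with OmoMYC and 429, 1757 and 602 with SNF5. SMARCB1 is the introduced gene, so its rise, counted among the higher genes below, was set by the design.

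Across gene bodies, many genes were transcribed more with SNF5 than with OmoMYC, and by larger margins than those transcribed less. Of 15163 genes tested, 1563 were higher with SNF5 (10.3% of those tested) and 951 were lower (6.27%), by edgeR's quasi-likelihood test at an adjusted p under 0.05. The median change was 0.93 on the log2 scale among the higher genes and −0.42 among the lower ones, and −0.02 over all genes tested. Over 2-fold, 740 genes were higher and 58 lower. Over 4-fold, 344 were higher and 6 lower. The direction was the same in all 3 replicate pairs for 1558 of the higher genes and for all 951 lower genes. The 2 groups of libraries did not overlap in scaled count for 867 of the higher genes and 421 of the lower ones, and 14.7% of all tested genes had no overlap. The split depended on the scaling: with library totals alone, 1412 genes were higher and 1566 lower. Without the replicate block, 20 were higher and 3 lower.

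**Figure D1:**
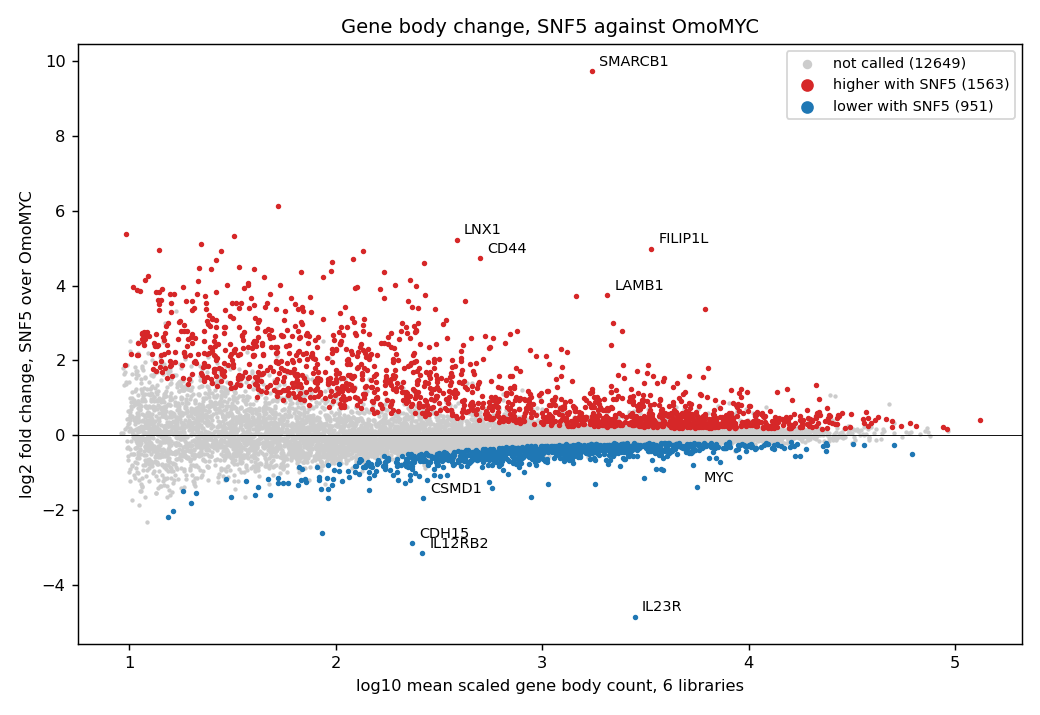
Gene body log2 fold change of SNF5 over OmoMYC (vertical axis) against the log10 mean scaled gene body count of the 6 libraries (horizontal axis), with 1 point a gene. The 1563 genes higher with SNF5 reach far above 4-fold, while 6 of the 951 lower genes pass 4-fold.

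Most of the 12 named genes with the largest excess under SNF5 had low counts with OmoMYC. LNX1, an E3 ubiquitin ligase that acts on NUMB, had scaled gene body counts of 8.79, 25.8 and 17.9 in the 3 OmoMYC libraries and 211, 1522 and 522 in the SNF5 libraries. The groups did not overlap, and the log2 fold change was 5.23 (SE 0.25, adjusted p = 0.000377). EGFP cells had 9.86, 38.4 and 17.2, 1 of them above the OmoMYC range and all below the SNF5 range.

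CD44, the hyaluronan receptor, rose from 31.9, 21.9 and 26.1 with OmoMYC to 1373, 1397 and 134 with SNF5, with the replicate 3 library well under the other two. Its log2 fold change was 4.73 (SE 0.60, adjusted p = 0.00611). JAG1, a Notch ligand, rose from 8.79, 3.87 and 9.78 to 342, 269 and 95.5, a log2 fold change of 4.70 (SE 0.46, adjusted p = 0.00308). In both genes every SNF5 library was above every OmoMYC library.

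After SMARCB1 and LNX1 came FILIP1L, with 312, 332 and 39.1 in OmoMYC libraries and 8010.1, 9071 and 2528 in SNF5 libraries. The log2 fold change was 4.99 (SE 0.23, adjusted p = 0.000345). It lies within C3orf26 on the opposite strand (chromosome 3 of hg19, 99566772 to 99595046), and C3orf26 itself had a log2 fold change of 0.25 that did not pass the test (adjusted p = 0.0669). COL8A1, a collagen gene 51.2 kb away, was higher by 2.02 (adjusted p = 0.0134). MIR548G, which overlaps FILIP1L on the same strand, was higher by 3.38 (SE 0.08, adjusted p = 7.02e-05). Whether the same reads add to both counts was not tested.

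GUCY2C, the receptor for guanylin, rose by 4.93 (adjusted p = 0.000378), from 6.59, 7.74 and 10.6 to 140.1, 278 and 370.2. IL18, an inflammasome cytokine, rose by 4.16 (adjusted p = 0.000345), and DUSP10, a phosphatase of stress-activated MAP kinases, by 3.97 (adjusted p = 0.00114). DOCK2, a Rac exchange factor of leukocytes, rose by 4.01, ADAM19, a metalloprotease, by 3.99, CPA4, a carboxypeptidase, by 4.60, and DDX60L, a relative of the antiviral helicase DDX60, by 4.36. Beside DDX60L, 16.6 kb away on the other strand, PALLD rose by 1.58 (adjusted p = 0.00306).

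The 3 genes furthest below OmoMYC were high in OmoMYC libraries and closer to the EGFP level in SNF5 libraries. IL23R, a subunit of the interleukin-23 receptor (chromosome 1 of hg19, 67632169 to 67725650), had scaled counts of 6435, 7356 and 2483 with OmoMYC and 181, 227 and 125 with SNF5. EGFP libraries had 60.3, 60.1 and 46. The 3 groups did not overlap, OmoMYC stood apart from both others, and the log2 fold change of SNF5 over OmoMYC was −4.86 (SE 0.17, adjusted p = 0.000196).

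IL12RB2, a subunit of the interleukin-12 receptor, starts 47.4 kb past IL23R on the same strand. It had 518, 579 and 293 with OmoMYC and 26.3, 134 and 26.4 with SNF5, a log2 fold change of −3.16 (SE 0.40, adjusted p = 0.00591). Whether polymerases that began at IL23R add to its count was not tested. CDH15, or M-cadherin, had 449, 377 and 407 with OmoMYC, 45.1, 54.3 and 67.4 with SNF5 and 80, 51.1 and 116 with EGFP, and its log2 fold change was −2.89 (SE 0.19, adjusted p = 0.000935).

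The other lower genes differed by smaller amounts, and each fall is SNF5 relative to OmoMYC. CSMD1, a large transmembrane complement-control gene, fell by 1.69 on the log2 scale, OXR1, an oxidation resistance gene, by 1.67 and RHCG, an ammonia transporter of the kidney, by 1.46. CSMD1 reads were sparse, at 0.158 to 0.259 scaled reads per kb with OmoMYC and 0.0439 to 0.0756 with SNF5. The median over all tested genes was 46.5, and CSMD1 had 0 promoter-proximal reads in these libraries. GALNTL1, PTGER3 (a prostaglandin E2 receptor), IKZF3 (a lymphoid zinc-finger factor) and ELAVL3 (a neuronal RNA-binding protein) fell by 1.41, 1.30, 1.29 and 1.26. PTGER3 libraries overlapped between the constructs, at 1298, 2664 and 356 against 335, 1607 and 147, and each pair fell. RHCG and GALNTL1 missed the threshold without replicate 2, at adjusted p = 0.0711 and 0.0699, and RHCG also without replicate 1, at 0.0728.

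LOC100499227 on chromosome 11 had the smallest SE of the 12 lower genes, with 2740.4, 2636 and 2309 against 1121, 1045 and 931, and fell by 1.32 (SE 0.06, adjusted p = 0.000345). Its EGFP libraries had 1818, 1647 and 1343, between the constructs. USP2, which starts 52 bp away on the other strand, fell by 0.54 (adjusted p = 0.0113).

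MYC was lower in gene body count with SNF5, at 2443, 3251 and 2839 against 5564, 14549.8 and 5017 with OmoMYC and 3872, 4691 and 3277 with EGFP. The log2 fold change was −1.40 (SE 0.24, adjusted p = 0.0156). OmoMYC is derived from MYC, and reads of the transgene and of the endogenous gene cannot be told apart in this count. PVT1, a noncoding gene 53.1 kb downstream, had a log2 fold change of 0.09 (adjusted p = 0.201).

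**Figure D2:**
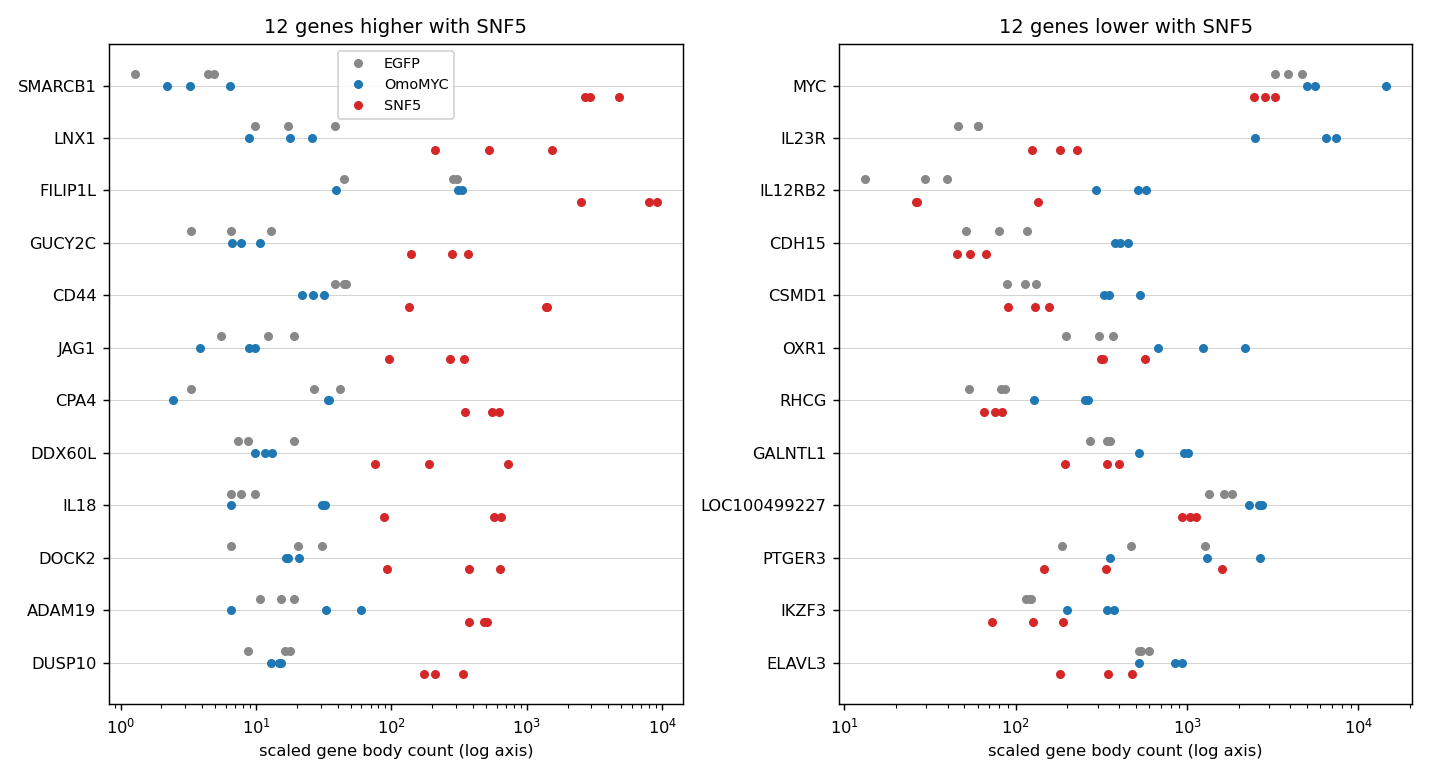
Scaled gene body counts (log axis) of the 12 genes higher and the 12 lower with SNF5 that the naming rule took, with 1 point a library for EGFP, OmoMYC and SNF5. On the left the EGFP and OmoMYC points lie below SNF5. At IL18 the OmoMYC points of replicates 1 and 2 (30.8 and 32.3) lie above the highest EGFP point (9.85). At ADAM19 they (33 and 59.4) also do (19.2). On the right all OmoMYC points lie above all EGFP points for each gene but PTGER3 and ELAVL3, where they overlap.

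EGFP levels place the differences. Among the 1563 higher genes, the EGFP mean lay nearer to OmoMYC than to SNF5 for 1383 (88.5%), and the median log2 difference was 1.06 between SNF5 and EGFP and 0.07 between OmoMYC and EGFP. Among the 951 lower genes, EGFP was nearer to OmoMYC for 608 (63.9%), with a median difference of −0.30 between SNF5 and EGFP and 0.14 between OmoMYC and EGFP. Of the genes not called, 59.6% had EGFP nearer to OmoMYC. These are descriptions, since the genes were taken for their difference between the same SNF5 and OmoMYC libraries.

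The extracellular matrix list had the most higher members by number. Over all genes tested, 10.3% were higher and 6.27% lower, and the shares given for each list below stand beside these. Of 48 extracellular matrix genes tested, 23 were higher with SNF5 (47.9%) and 0 lower, with a median log2 fold change of 0.44. The basement membrane laminin chain LAMB1 had 267, 359 and 233 with OmoMYC and 4349.6, 4245 and 2967 with SNF5, a rise of 3.74 (SE 0.11, adjusted p = 0.000122). LAMB3, a chain of laminin-332, rose by 3.95, FBN1, which forms microfibrils, by 1.14, and the fibrillar collagen COL5A2 by 0.77. With library totals alone the counts were 21 higher and 3 lower.

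Among 27 integrin and cadherin genes, 8 were higher and 1 lower (29.6% and 3.7%, median 0.28). ITGB3, the beta subunit of the vitronectin receptor, rose by 3.39 (adjusted p = 0.00277) and the laminin receptor ITGA6 by 0.83, while CDH4 fell by 0.57. Of 33 actin and smooth muscle genes, 10 were higher (30.3%) and 0 lower (median 0.13). MYLK, the myosin light chain kinase, rose by 2.59, CALD1, or caldesmon, by 1.58, LIMA1 by 1.38 and MYH9 by 0.42. With library totals alone, 9 were higher and 1 lower.

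Signaling lists were mixed. The shares higher and lower were 36.4% and 9.09% for YAP and TEAD and 22.2% and 2.78% for WNT. For TGF-beta and BMP they were 20% and 10%, and for receptor tyrosine kinases 18.8% and 9.38%. In the YAP and TEAD list, 8 of 22 were higher and 2 lower: ANKRD1 rose by 2.35 (adjusted p = 0.000811) and CTGF by 0.81, while TGFB2 fell by 0.67 and TEAD2 by 0.48. In the WNT list, 8 of 36 were higher and 1 lower, with LGR4, an R-spondin receptor, up by 2.42, ROR1 by 2.3 and the feedback gene AXIN2 by 0.64. In the TGF-beta and BMP list, 8 of 40 were higher and 4 lower, and BMP6 fell by 0.54. Among receptor tyrosine kinases, 6 of 32 were higher and 3 lower, with NTRK2 up by 1.5, AXL by 0.79 and PDGFRA by 0.76 and ERBB3 down by 1.02 (log2 fold change −1.02). NTRK2 and ROR1 reads were sparse. NTRK2 had 0.0651 to 0.241 scaled reads per kb with OmoMYC and 0.231 to 0.635 with SNF5. ROR1 had 0.0517 to 0.0926 with OmoMYC and 0.161 to 0.702 with SNF5.

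Immediate early and ERK feedback genes also split, with 21.7% and 25% higher and 13% and 12.5% lower, in that order. JUN rose by 1.13, NR4A3 by 1.57 and FOSL2 by 0.50, and EGR1 fell by 0.65, among 5 higher and 3 lower of 23. DUSP5 rose by 1.22, SPRY2 by 0.45 and SPRED2 by 0.44, and SPRY1 fell by 0.34, among 4 higher and 2 lower of 16. SPRY1 and SPRY2 missed the threshold without replicate 1, at adjusted p = 0.0937 and 0.0643, and without replicate 2, at 0.0875 and 0.0635.

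Cell cycle regulators moved in a few members, with 25% higher and 6.25% lower. CDK6, a G1 kinase, rose by 0.94 (adjusted p = 0.00152) and its inhibitor CDKN2B by 1.65 (adjusted p = 0.00768), among 4 higher and 1 lower of 16. CCND1 and CDKN2A each rose by 0.42. CCND1 missed the threshold without replicate 1 or 2 (adjusted p = 0.0554 and 0.0551), as did CDKN2A (0.193 and 0.3), whose call was also lost with TMM factors (0.0524), with gene body totals alone (0.0538) and with all 9 samples in the fit (0.163). Of 45 replication and E2F genes, 1 was higher and 1 lower, and of 37 mitotic genes, 2 were higher and 1 lower. Both lists were called at smaller shares than all genes tested. Of 24 p53 targets, 4 were higher and 3 lower (16.7% and 12.5%), with MDM2 up by 0.45 (adjusted p = 0.0503 without replicate 2).

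Kidney development factors had 4 higher and 1 lower of 20 (20% and 5%). OSR2 rose by 1.08 and MEIS2 by 0.43, and PAX2 fell by 0.43. Of 28 HOX genes, 0 were higher and 2 lower (HOXA11, −0.84, and HOXB6, −0.63). The lower share, 7.14%, was near that over all genes tested. Without replicate 1, MEIS2 and HOXB6 missed the threshold, at adjusted p = 0.0967 and 0.0937, and without replicate 2 MEIS2, HOXB6 and PAX2 did, at 0.0892, 0.222 and 0.0657.

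Protein synthesis genes, the classical targets of MYC, differed between the constructs by small amounts where they were called. Of 68 cytosolic ribosomal protein genes, 18 were higher with SNF5 (26.5%) and 0 lower, and the median was 0.19. RPLP1, a stalk protein, had 1079.7, 933 and 1371 with OmoMYC, 1704, 1778 and 1796 with SNF5 and 1791, 1593 and 1753 with EGFP, a rise of 0.65 (SE 0.11, adjusted p = 0.0136). RPS27A rose by 0.48, RPL12 by 0.34 and RPL24 by 0.33. RPL12 and RPL24 missed the threshold without replicate 1, at adjusted p = 0.157 and 0.0881, and RPS27A, RPL12 and RPL24 without replicate 2, at 0.0571, 0.107 and 0.127. The list's median by pair was 0.28, 0.32 and 0.04, the last in replicate 3. Leaving out replicate 1 left 2 higher and leaving out replicate 2 left 1, whereas 57 were higher and 1 lower when replicate 3 was left out.

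Of 11 snoRNA host genes, which also carry a 5′ terminal oligopyrimidine tract in many cases, 6 were higher (54.5%) and 0 lower (median 0.26). SNHG6 rose by 0.49, GAS5 by 0.29, and SNHG1 and SNHG7 by 0.26 each. Leaving out replicate 1 or 2 left 1 each time, and leaving out replicate 3 gave 9. With all 9 samples in the fit GAS5, SNHG1 and SNHG7 missed the threshold, at adjusted p = 0.0668, 0.114 and 0.148. Nucleolar ribosome biogenesis genes had 0 of 51 higher and 3 lower: RRP12 (−0.67), MYBBP1A (−0.34) and UTP20 (−0.32). The lower share, 5.88%, was near that over all genes tested. The list's median was 0.01, and without replicate 3 there were 17 higher and 9 lower. MYBBP1A and UTP20 missed the threshold without replicate 1, at adjusted p = 0.0989 and 0.0665, and without replicate 2, at 0.077 and 0.107.

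Translation factors had 2 of 43 higher (EIF4A2 by 0.27 and EEF1A1 by 0.24) and aminoacyl-tRNA synthetases 1 of 21 lower (AIMP2, −0.26). Nucleotide and one-carbon synthesis had 0 of 30 called. The shares in these lists were below those over all genes tested. Of 10 members of the MYC network, 0 were higher and 3 lower (30%): MYC, MXD3 (−0.73) and MNT (−0.37). MXD3 and MNT are MAX partners that oppose MYC. In the MYC count, transgene and endogenous reads cannot be told apart. In glycolysis 3 of 20 were higher (15%), among them PDK1 by 0.93 and the lactate transporter SLC16A1 by 0.45. In cholesterol and fatty acid synthesis 2 of 26 were higher and 1 lower (7.69% and 3.85%), with HMGCS1 up by 0.82 and SREBF1 down (−0.48). Without replicate 1, EIF4A2, EEF1A1, AIMP2 and MNT missed the threshold (adjusted p = 0.229, 0.18, 0.203 and 0.167), and without replicate 2 EIF4A2, EEF1A1, AIMP2 and SREBF1 did (0.135, 0.239, 0.227 and 0.0805).

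Of 25 SWI/SNF subunit genes tested, 2 were higher and 2 lower (8% each). SMARCB1, the introduced gene, was 1 of the higher ones. DPF3 rose by 1.27, while SMARCD3 fell by 0.64 and BCL7A by 0.56. Polycomb genes had 2 higher and 2 lower of 22 (9.09% each), with JARID2 up by 0.78 and PHC2 by 0.53. Pause release and elongation factors had 2 higher and 2 lower of 29 (6.9% each), with MLLT3 up by 1.27 and AFF1 by 0.54. The integrated stress response list had 4 higher and 1 lower of 26 (15.4% and 3.85%) and heat shock chaperones 2 and 1 of 19 (10.5% and 5.26%). The oncofetal list had 2 and 0 of 10 (20% higher) and the interferon list 0 and 0 of 18. The CEBP family had 0 and 1 of 5 (CEBPA, −0.68). The SWI/SNF, Polycomb, elongation factor and heat shock shares were near the 10.3% and 6.27% over all genes tested. DPF3 and CEBPA missed the threshold without replicate 2, at adjusted p = 0.0909 and 0.0716. The higher stress response members VLDLR, CBS, GDF15 and CTH missed it without replicate 1, at adjusted p = 0.0688, 0.242, 0.14 and 0.217. Without replicate 2, CBS, GDF15 and CTH did, at 0.125, 0.217 and 0.128. All called oncofetal and heat shock members, and the lower Polycomb and elongation factor genes, missed it without replicate 1 and also without replicate 2.

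**Figure D3:**
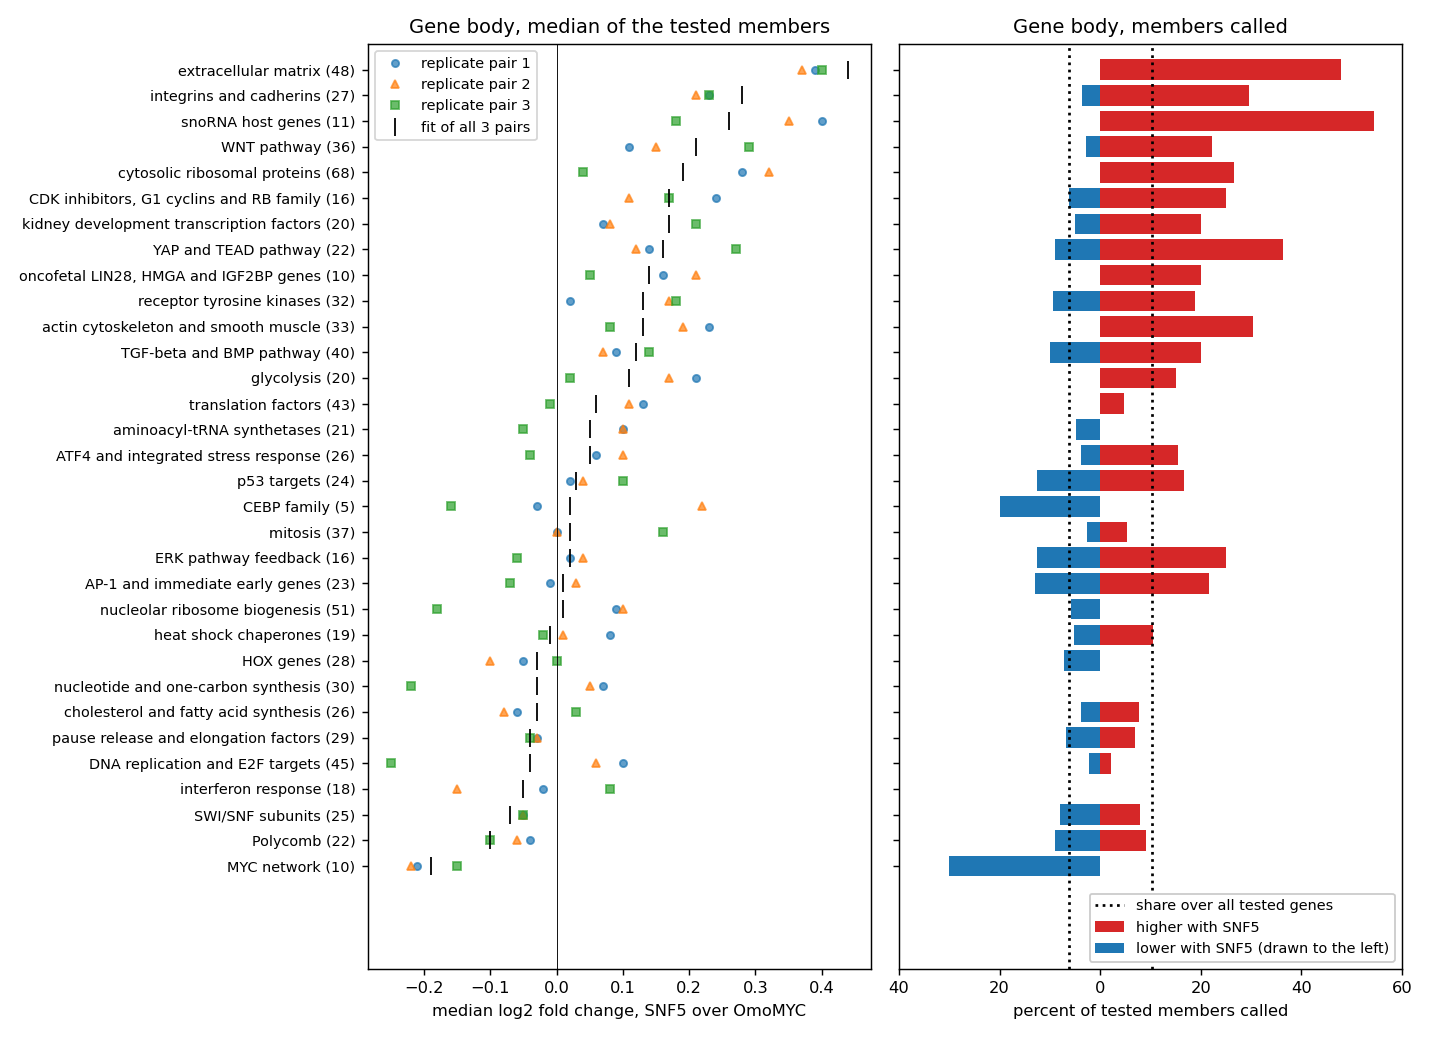
Left, the median gene body log2 fold change of SNF5 over OmoMYC among the tested members of each of 32 gene lists (member number in brackets), from the fit and in each replicate pair. Right, the percent of tested members called in each direction, with dotted lines at the shares over all tested genes, 10.3% higher and 6.27% lower; 18 of the 32 lists lie past the line for higher genes and 12 past the line for lower genes.

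Promoter-proximal counts differed at fewer genes, and the balance of higher to lower calls moved with the scale. Of 11355 genes tested, 79 were higher (0.696%) and 206 lower (1.81%) on the gene body scale, where the median over all was −0.17. With offsets from promoter-proximal totals, 126 were higher and 52 lower. Of the 285 genes called on the gene body scale, 131 (46.0%) were still called in the same direction, and all 285 kept their sign. The summed promoter-proximal count was 2.01%, 11.5% and 4.79% of the summed gene body count with OmoMYC and 1.63%, 9.45% and 4.40% with SNF5. It was lower with SNF5 in 3 of 3 pairs, by a mean of −0.24 on the log2 scale (exact paired permutation test, two-sided, p = 0.25, the smallest that 3 pairs allow).

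Among the higher genes, FILIP1L had promoter-proximal scaled counts of 11, 147 and 38.3 with OmoMYC and 133, 1459.8 and 293 with SNF5, a rise of 3.21 (adjusted p = 8.95e-13). CPA4 rose by 3.58, LBH, a WNT-responsive cofactor, by 3.17 and ANXA1, or annexin A1, by 2.60. Each of these also rose in its gene body. Relative to the median of all genes these are larger by the same 0.17.

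Among the lower genes, CENPT, a kinetochore protein, had 56, 1383 and 148 with OmoMYC, 17.9, 506 and 85.3 with SNF5 and 8.77, 102 and 25.4 with EGFP. It fell by 1.26 (adjusted p = 0.000202), and by 0.89 in its gene body. C5orf41, CCDC83 and URB2, a ribosome biogenesis gene, fell by 1.26, 1.26 and 1.24 in the promoter-proximal window, and their gene body changes were −0.06 (adjusted p = 0.853), 1.84 (adjusted p = 0.0371) and −0.21 (adjusted p = 0.117). C5orf41, CENPT and URB2 missed the threshold without replicate 2, at adjusted p = 0.265, 0.0592 and 0.0945. Of the 807 genes higher in the gene body and tested near the promoter, 55 were also higher there and 3 lower, while 53 of the 809 lower genes tested were lower there. The other 756 higher and 142 lower genes were not tested there, nor for the pausing index.

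The pausing index was lower with SNF5 than with OmoMYC at 315 of 11282 genes (2.79%) and higher at 31 (0.275%), with a median of −0.13 over all on the gene body scale. With each region on its own scale the median was 0.04, and 79 genes were higher and 112 lower. Because the gene body count is the denominator, a gene that rises there without a like rise near its promoter has a lower index: 161 of the 315 lower genes were higher in the gene body, 2 were lower and 152 were not called there.

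Of the genes named for this measure, MYC led with a rise of 1.62 (SE 0.20, adjusted p = 2.88e-06), with promoter-proximal scaled counts of 281, 490.3 and 215 against 313, 604 and 244 and the fall in gene body count given above. Transgene and endogenous reads cannot be told apart in this index either. TMEM2, a hyaluronidase of the cell surface, rose by 1.41 (adjusted p = 0.000255) from a change near the promoter, where its counts went from 35.1, 109.7 and 13.9 to 81.8, 353 and 47.8. GGA3, a clathrin adaptor, rose by 1.28, ZNF213 by 1.18 and LOC100507250 by 1.05. GGA3 and LOC100507250 missed the threshold without replicate 2, at adjusted p = 0.179 and 0.28, LOC100507250 also without replicate 1, at 0.098, and ZNF213 without replicate 3, at 0.0771.

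Among the lower indices, FILIP1L fell by 1.89 (adjusted p = 3.22e-05), RASL11B, a Ras-like GTPase, by 1.62 and PPP1R3C, a glycogen-targeting phosphatase subunit, by 1.58 (adjusted p = 6.73e-08). PPP1R3C had scaled counts of 1727, 3609 and 1327 near its promoter with OmoMYC and 1204, 3685 and 2336 with SNF5, in overlapping ranges, while its gene body rose by 1.70. CNKSR3 and LOC643339 each fell by 1.56, and LOC643339 missed the threshold without replicate 2 (adjusted p = 0.162). FBN1 (−1.22) and LGR4 (−1.29) were also lower.

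Of 68 ribosomal protein genes, 12 were lower in index (17.6%, against 2.79% of all genes) and 0 higher, with a median of −0.30 against −0.13 over all genes. RPLP1 fell by 0.88 (adjusted p = 0.00463). With each region on its own scale, 5 were lower and the median was −0.12. DESeq2 and the fit of all 9 libraries called 0 of them, leaving out replicate 1 or 2 left 1 each time, and leaving out replicate 3 gave 19. The snoRNA host list had 1 of 11 lower and a median of −0.44, and nucleolar biogenesis genes 0 of 50 called and −0.18.

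**Figure D4:**
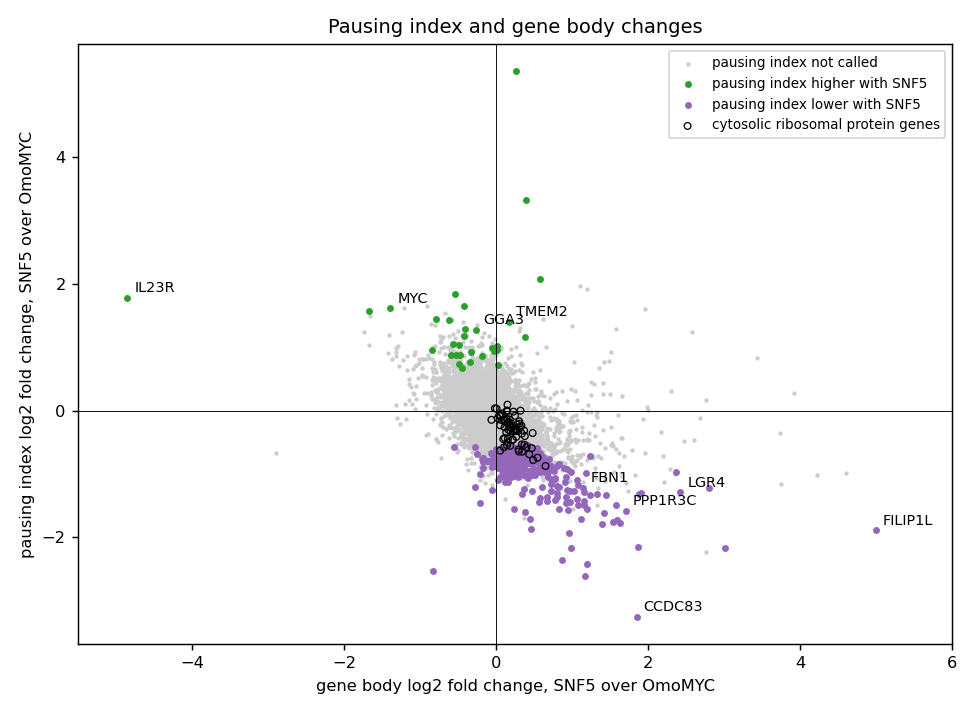
Pausing index log2 fold change (vertical axis) against gene body log2 fold change (horizontal axis), SNF5 over OmoMYC, with 1 point a gene and ribosomal protein genes circled; SMARCB1 lies off the right edge. The genes lower in index lie mostly to the right of 0, and the circled genes lie mostly below 0 on the vertical axis.

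Other assays of the series give features that the PRO-Seq counts did not use. MYC-bound regions were those with a peak in both EGFP ChIP-Seq samples, 897 in all. Such a region was found at 1 kb or less from the start in 48 of the 1563 higher genes (3.07%, exact 95% interval 2.27% to 4.05%), 76 of the 951 lower genes (7.99%, 6.35% to 9.90%) and 707 of 12649 genes not called (5.59%, 5.2% to 6.0%). Intervals here cover counting error only. Of the 740 genes higher by over 2-fold, 1 had such a region, as did 39 of 68 ribosomal protein genes and 29 of 51 nucleolar biogenesis genes. Higher genes had longer gene bodies, at a median of 75.9 kb against 25.9 kb for lower genes and 26.9 kb for genes not called. They were less densely transcribed, at a median of 10.4 scaled reads per kb, than lower genes at 45.5 and genes not called at 50, and the part of length or level in these shares was not tested.

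Open chromatin was taken from ATAC-Seq peaks of the same constructs. Sites open in all 3 SNF5 and 0 of 3 OmoMYC samples numbered 2588, and sites of the opposite kind numbered 0. Distances were taken from the outermost RefSeq start of the gene on GRCh38. That start can differ from the start of the transcript counted by PRO-Seq. The nearest SNF5-only site was at 50 kb or less from the start in 301 of 1551 higher genes (19.4%, 17.5% to 21.5%), 66 of 945 lower genes (6.98%, 5.44% to 8.80%) and 1183 of 12573 genes not called (9.41%, 8.90% to 9.93%). Within 1 kb the shares were 2.32%, 0.741% and 1.22%. Among the named genes, a SNF5-only site lay 10 bp from the start of ANKRD1 and at that of ADAM19. The nearest was 1.99 kb from the start of ANXA1 and 2.06 kb from that of GUCY2C. From the outermost gene start, the nearest to FILIP1L was 111 kb away and to LNX1 176 kb.

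Start windows, from 250 bases before to 50 after each start, were searched on both strands for CACGTG, the E-box bound by MYC and MAX, and TGANTCA, a pattern that takes in the AP-1 cores TGACTCA and TGAGTCA and other letters at its center, where both patterns read the same on either strand and share no match. The starts of these windows, too, can differ from that of the counted transcript. CACGTG was in 6.03% of 1211 higher genes' windows, 14.4% of 734 lower genes' and 9.94% of 9984 others, and in 9.82% of all tested. TGANTCA was in 7.60%, 5.18% and 4.51%, and in 4.86% of all tested. Among the genes higher by over 4-fold, 30 of 251 windows held it (12%, 8.21% to 16.6%). The AP-1 cores alone, TGACTCA or TGAGTCA, were in 4.62% of higher, 3.54% of lower and 3.07% of other windows, in 3.26% of all tested, and in 22 of those 251 (8.76%, 5.57% to 13.0%). A match is a description of letters only. The windows below, from RefSeq on GRCh38.p14 and 5′ to 3′ on the gene's strand, are shown because they are those of a SNF5-high gene with a pair of TGANTCA matches, a SNF5-high gene with a SNF5-only open site at its start, and a SNF5-low gene that is MYC-bound. Capitals mark the matches.

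CPA4, chr7:130292911-130293210, plus strand: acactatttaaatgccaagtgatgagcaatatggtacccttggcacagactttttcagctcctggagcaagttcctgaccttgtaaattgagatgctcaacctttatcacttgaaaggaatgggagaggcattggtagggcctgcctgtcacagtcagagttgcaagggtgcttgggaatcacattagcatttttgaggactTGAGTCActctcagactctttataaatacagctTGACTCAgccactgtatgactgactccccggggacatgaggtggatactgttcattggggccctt
ANKRD1, chr10:90921038-90921337, minus strand: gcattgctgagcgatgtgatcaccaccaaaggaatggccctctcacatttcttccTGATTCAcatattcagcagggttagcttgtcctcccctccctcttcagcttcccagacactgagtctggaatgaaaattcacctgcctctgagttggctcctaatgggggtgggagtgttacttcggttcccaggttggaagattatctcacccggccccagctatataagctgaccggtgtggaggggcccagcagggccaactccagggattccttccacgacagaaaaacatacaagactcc
MYBBP1A, chr17:4555335-4555634, minus strand: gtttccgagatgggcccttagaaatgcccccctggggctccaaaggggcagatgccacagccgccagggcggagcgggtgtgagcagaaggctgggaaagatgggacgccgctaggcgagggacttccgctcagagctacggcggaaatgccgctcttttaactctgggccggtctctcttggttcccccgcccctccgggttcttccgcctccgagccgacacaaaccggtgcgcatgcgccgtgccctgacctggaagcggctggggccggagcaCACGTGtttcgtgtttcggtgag

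In these windows the first CPA4 match begins 48 bases before the start and the ANKRD1 match, TGATTCA, which is not one of these AP-1 cores, 195 bases before it. The MYBBP1A match, CACGTG, begins 27 bases past the start. The gene body changes beside them were 4.60, 2.35 and −0.34.

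**Figure D5:**
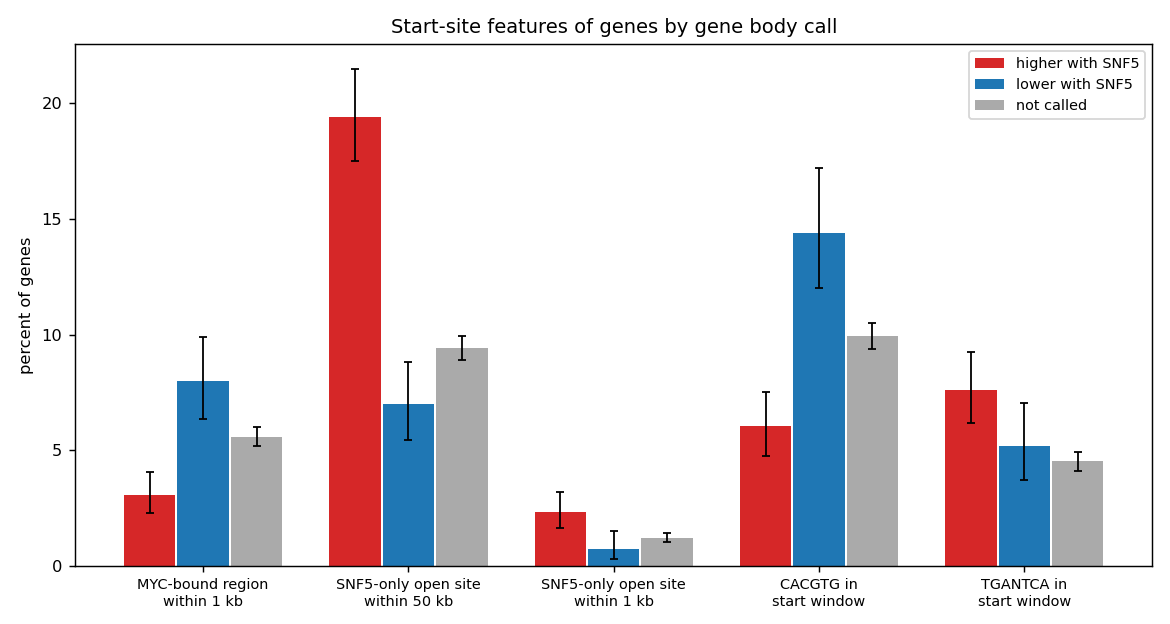
Percent of genes with each feature at or near the start (vertical axis), for genes higher or lower with SNF5 in gene body count and genes not called, with exact 95% intervals that cover counting error only. SNF5-only open sites within 50 kb are at 19.4% of higher and 6.98% of lower genes, and CACGTG is in 6.03% and 14.4% of their start windows.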

How the data were processed

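The authors trimmed PRO-Seq reads with cutadapt, aligned them to hg19 with Bowtie2 and deposited raw counts per RefSeq transcript near the promoter and in the gene body, with a signal column, the gene body density per bp. The row with the highest summed count was kept for each of 20367 genes, and a mean count of 10 or more was required. edgeR 4.0.16 in R 4.3.3 (quasi-likelihood test, Benjamini-Hochberg at 0.05) was run blocking on replicate number and, for both regions, with gene body totals times RLE factors as offsets; DESeq2 1.42.0 was an alternative. SE is the log2 fold change over the root of F. Deviations from construct means correlated at 0.785 to 0.819 between gene body libraries sharing a number and at −0.647 to 0.029 otherwise, so numbers were taken as pairs. The pausing index change was the region by construct interaction. Scaled counts use RLE factors of all 9 libraries. Named genes were SMARCB1, MYC, the 12 largest changes each way in gene bodies (mean count at least 100, same direction in 3 pairs), 5 each way for the other measures (at least 50), and up to 4 called members of each of 32 lists, or 2 where none was called; the few neighbors given were chosen after their values were seen. Members and lists were chosen with earlier results of these data known. MYC ChIP-Seq (hg19) and ATAC-Seq (hg38) peaks were called by the authors with MACS2, and the deposited lists give a fold ratio and −log10 p and q, of which only positions were used. The methods were tested on simulated data. Some named genes are not reported here.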

Additional observations from a re-analysis of the deposited data

How the results depend on the processing

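Depth near promoters was lowest in replicate 1, and its part in the calls was not tested. Called genes numbered 2514 in gene bodies, 285 near promoters and 346 for the pausing index. With no replicate block the paired design was given up, and the counts were 23, 0 and 0 (1358, 30 and 10 genes at an unadjusted p under 0.05 by edgeR, and 2621, 133 and 92 called by DESeq2 with the block). With all 9 samples in the fit they were 2893, 107 and 131. Without a filter 492 genes were called near promoters, and 488 for the pausing index. With promoter-proximal offsets 178 were called near promoters, and with each region's own offsets, an alternative chosen after seeing the data, 191 for the pausing index. Leaving out 1 replicate gave 1043 to 7514 in gene bodies (1145 without replicate 1, 1043 without replicate 2 and 7514 without replicate 3), 51 to 1391 near promoters (159, 51 and 1391) and 85 to 1099 for the pausing index (182, 85 and 1099). 1080, 1001 and 2498 of the 2514 gene body calls remained. The share of genes with a MYC peak was 14.6% of higher and 33.5% of lower genes with all peaks of EGFP sample 2, against 31.3% of genes not called and 29.7% of all tested. The causes were not tested. The ratio of summed counts stayed lower with SNF5 under each alternative run, but it uses raw counts within a library. Scaling, offsets and the replicate block therefore could not change it. Of 143 single-gene values, the call was lost for 41 without replicate 1, 49 without replicate 2, 1 without replicate 3 and 131 without the block. MTHFD1L, not called, was −0.04 with all pairs and ran from −0.13 to 0.14 with 1 replicate left out, turning positive without replicate 3 (adjusted p = 1.13e-09 by edgeR).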
